A study of Mus musculus with 12 samples.

Results

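Tbc1d4 and 4 further genes of glucose uptake (Tbc1d1, Slc2a1, Slc2a3 and Txnip) were described across 12 RNA sequencing libraries of CTL (mouse cytotoxic T lymphocytes, the effector form of CD8 T cells). The 5 genes were chosen by symbol from the 13283 genes of the table, and all 5 were present. Tbc1d4 was picked for a response to a PI3K p110δ inhibitor that differed between genotypes, so its values are given as a description, with no test. The other 4 were taken for their roles in glucose uptake, with earlier results of these data known, and were tested.

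All CTL were grown from lymph nodes or spleens of age- and sex-matched adult female mice that express the Cre recombinase from the granzyme B promoter, which is switched on as T cells become effectors. WT CTL carried this Cre alone (GzmB cre+). FOXO1-GFP KO CTL (FOXO1-GFPfl/fl Gzmb cre+) carried in addition a Foxo1 allele in which the exon that holds the GFP tag is flanked by LoxP sites, so that deletion takes place in culture and only in cells that have switched on the Cre. T cells were activated for 48 h through CD3 and CD28 and were then grown with 2 cytokines, IL-12 at 2 ng/mL and IL-2 at 20 ng/mL. Each genotype was given vehicle (DMSO) or 10 µM IC87114, an inhibitor of the catalytic subunit p110δ of PI3K (PI3Kdi), for 24 h. Before RNA extraction the cells were sorted as live and CD8+, and those of FOXO1-GFP KO mice as GFP- in addition, a gate that the WT cells did not pass through. Each of the 4 groups held 3 libraries that the labels call biological replicates. The labels number the replicates alike in the vehicle and PI3Kdi groups of a genotype but do not say that a number stands for 1 mouse. Values are FPKM (fragment counts scaled to exon length and library size), and the depth recovered from their spacing was 12.9 to 48.0 M (mega) reads per library. Where nothing ties a library to its own mouse or culture, a p-value measures only the spread between these libraries.

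In insulin-responsive tissues, phosphatidylinositol 3-kinase activates AKT, which phosphorylates the RabGAP proteins TBC1D4 (also called AS160) and TBC1D1. A RabGAP switches Rab GTPases off, and the phosphorylated RabGAP binds 14-3-3 proteins and no longer holds vesicles with glucose transporters inside the cell. Activated T cells take up glucose mainly through GLUT1 (Slc2a1) and GLUT3 (Slc2a3) at the cell surface, while TXNIP, an alpha-arrestin whose mRNA is induced by glucose through the transcription factors MondoA and MLX, promotes the removal of GLUT1 from the surface. FOXO1 is a forkhead transcription factor that AKT keeps out of the nucleus.

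Promoter windows are shown for Tbc1d4, whose mRNA differed most between the groups among the 5 genes, and for Txnip and Arrdc4, related alpha-arrestin genes. Each window runs from 250 bases before to 50 bases from the start site and was taken from RefSeq (GRCm38.p6), in which 4 of the 5 genes had a window. They are written 5′ to 3′ on the strand of the gene. The Tbc1d4 window is chr14:101609142-101609441 (minus strand), that of Txnip is chr3:96557707-96558006 (plus strand) and that of Arrdc4 is chr7:68749189-68749488 (minus strand). Capitals mark matches on either strand to the forkhead motif GTAAACA, to the E-box CACGTG and to a carbohydrate response element, written as CACGNG and CNCGNG with 5 bases between them.
Tbc1d4: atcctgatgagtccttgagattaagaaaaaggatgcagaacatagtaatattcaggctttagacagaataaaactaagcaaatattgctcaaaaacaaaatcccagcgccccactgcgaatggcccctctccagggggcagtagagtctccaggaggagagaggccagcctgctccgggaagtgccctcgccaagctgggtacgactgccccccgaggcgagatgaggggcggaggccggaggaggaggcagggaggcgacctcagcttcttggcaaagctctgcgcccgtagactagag
Txnip: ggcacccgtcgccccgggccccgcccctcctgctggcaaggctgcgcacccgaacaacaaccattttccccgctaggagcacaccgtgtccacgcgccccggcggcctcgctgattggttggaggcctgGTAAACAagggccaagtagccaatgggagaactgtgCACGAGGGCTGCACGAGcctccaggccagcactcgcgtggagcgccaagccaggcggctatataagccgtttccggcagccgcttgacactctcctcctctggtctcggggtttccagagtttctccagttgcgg
Arrdc4: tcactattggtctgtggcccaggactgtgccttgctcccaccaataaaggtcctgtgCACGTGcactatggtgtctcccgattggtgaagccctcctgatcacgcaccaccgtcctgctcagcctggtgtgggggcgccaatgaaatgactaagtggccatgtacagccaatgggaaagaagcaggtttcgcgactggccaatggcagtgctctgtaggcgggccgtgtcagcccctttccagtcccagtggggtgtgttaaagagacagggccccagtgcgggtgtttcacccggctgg
The Txnip window held GTAAACA from -121 to -115 of the start site and the carbohydrate response element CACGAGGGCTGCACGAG from -85 to -69. The Arrdc4 window held CACGTG from -193 to -188. Of 32851 windows of the genome, 3.65% held GTAAACA, 7.15% held CACGTG and 0.365% held the carbohydrate response element, and among 12228 windows of genes in the table these shares were 2.53%, 9.85% and 0.662%. A further motif, the hypoxia response core ACGTG, which lies inside CACGTG, was in 19.6% of all windows and 25.7% of those of genes in the table. It was found in the Slc2a1 window from -36 to -32. None of the 4 motifs was found in the Tbc1d4 window or in either of the 2 Tbc1d1 windows, which says only that these letters are not in those bases.

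Foxo1 mRNA checks the genotype labels. Its level was 5.77 to 9.99 FPKM in WT, 5.84 to 10.46 FPKM in WT+PI3Kdi, 0.58 to 1.44 FPKM in FOXO1-GFP KO and 0.61 to 1.75 FPKM in FOXO1-GFP KO+PI3Kdi, so the libraries of the genotypes did not overlap. Some Foxo1 reads were thus left in every FOXO1-GFP KO library. FPKM cover all exons of a gene, so intact mRNA and mRNA without the deleted exon cannot be told apart. All 6 CTL markers were present, with summed levels of 8118 to 11936 FPKM across the 12 libraries. The B cell markers Cd79a and Ms4a1, the CD4 T cell marker Foxp3, the NK cell marker Ncr1, the myeloid markers Lyz2, Csf1r and Adgre1, and all 3 erythroid markers were not among the genes of the table. The 3 myeloid markers left in the table summed to 14.8 to 27.0 FPKM. Cd68 made up most of that sum, at 14.54 to 26.95 FPKM. Itgam was at 0.02 to 0.16 FPKM and Cd14 at 0.03 to 0.41 FPKM.

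Tbc1d4 (ENSMUSG00000033083) lies on chromosome 14 from 101442360 to 101609191 (GRCm38, minus strand). WT libraries 1 to 3 held Tbc1d4 mRNA at 0.41, 0.21 and 0.26 FPKM, and the same numbers of WT+PI3Kdi at 1.52, 0.63 and 1.07 FPKM. The FOXO1-GFP KO libraries read 0.09, 0.14 and 0.07 FPKM, and those of FOXO1-GFP KO+PI3Kdi read 0.10, 0.12 and 0.10 FPKM. All WT+PI3Kdi libraries lay above all WT libraries, all WT libraries lay above all FOXO1-GFP KO libraries, and the 2 FOXO1-GFP KO groups overlapped. In bulk RNA, fewer cells that express a gene and less mRNA per cell cannot be told apart.

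The mean Tbc1d4 level was 0.293 ± 0.104 FPKM (SD, n = 3) in WT and 1.07 ± 0.445 FPKM (SD, n = 3) in WT+PI3Kdi, a ratio of 3.66. In FOXO1-GFP KO CTL it was 0.10 ± 0.0361 FPKM (SD, n = 3) with vehicle and 0.107 ± 0.0115 FPKM (SD, n = 3) with PI3Kdi, a ratio of 1.07. The mean in WT was 2.93 times that in FOXO1-GFP KO without PI3Kdi and 10.1 times with it. The order of the groups was therefore WT+PI3Kdi, WT, and then both FOXO1-GFP KO groups, which differed by less than the spread between replicates.

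Log2 differences were taken on log2(FPKM + 0.1), which understates the change of a low gene such as Tbc1d4. On this scale Tbc1d4 was 1.67, 1.24 and 1.70 higher with PI3Kdi in the same-numbered pairs of WT, and 3 of 3 pairs moved up. In FOXO1-GFP KO the same differences were 0.07, -0.13 and 0.23, with 2 of 3 pairs up. Averaged over a genotype, the difference was 1.53 for WT and 0.06 for FOXO1-GFP KO, and the FOXO1-GFP KO response minus the WT response was -1.47. The genotype difference was -0.96 without and -2.43 with PI3Kdi. The pseudocount weighs on these values: with a pseudocount of 1 the WT difference was 0.66, and with voom on estimated reads it was 1.92.

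Few reads lay behind Tbc1d4. The estimated reads were 79, 77 and 56 in WT and 222, 74 and 127 in WT+PI3Kdi. FOXO1-GFP KO libraries had 16, 35 and 7 without PI3Kdi and 24, 19 and 14 with it, so counting error alone was 16.9 to 37.8% of a value in the FOXO1-GFP KO libraries. FPKM were deposited to 0.01, a coarse step at these levels. Between 2.09 and 28.0% of genes in a library had a lower FPKM than Tbc1d4, which places it among the scarcer mRNA of the table in every group.

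The sum of the 4 B cell markers that remained in the table (Cd79b, Ighm, Igkc and Jchain) had a group order like that of Tbc1d4. It was 11.9 to 16.0 FPKM in WT, 16.1 to 20.8 FPKM in WT+PI3Kdi, 4.55 to 6.97 FPKM in FOXO1-GFP KO and 4.49 to 6.41 FPKM in FOXO1-GFP KO+PI3Kdi. Ighm made up most of the sum in WT, at 7.61 to 12.98 FPKM without and with PI3Kdi. Cd79b alone was at 3.00 to 4.29 FPKM in WT and 2.86 to 4.49 FPKM in WT+PI3Kdi, which overlap. Igkc was listed at 0 in all 3 FOXO1-GFP KO+PI3Kdi libraries. The CD4 T cell markers Cd4 and Cd40lg summed to 0.84 to 1.34 FPKM in WT, 1.36 to 1.79 FPKM in WT+PI3Kdi, 0.62 to 1.1 FPKM in FOXO1-GFP KO and 0.64 to 1.27 FPKM in FOXO1-GFP KO+PI3Kdi, so that this sum too was highest in the WT+PI3Kdi libraries, in which Cd4 itself was at 0.83 to 0.95 FPKM. Cd40lg alone was at 0.40 to 0.77 FPKM in WT and 0.47 to 0.84 FPKM in WT+PI3Kdi, which overlap. NK cell markers Klrb1c and Klrd1 summed to 37.0 to 47.4 and 66.1 to 91.0 FPKM in WT without and with PI3Kdi, and to 31.3 to 51.6 and 46.6 to 75.3 FPKM in FOXO1-GFP KO. Klrd1 made up most of that sum, at 27.64 to 88.40 FPKM over all libraries. The cells had been sorted as CD8+, and the purity of that sort was not tested here. The part of these markers, and of the GFP gate used for a single genotype, in the Tbc1d4 values was not tested.

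**Figure D1:**
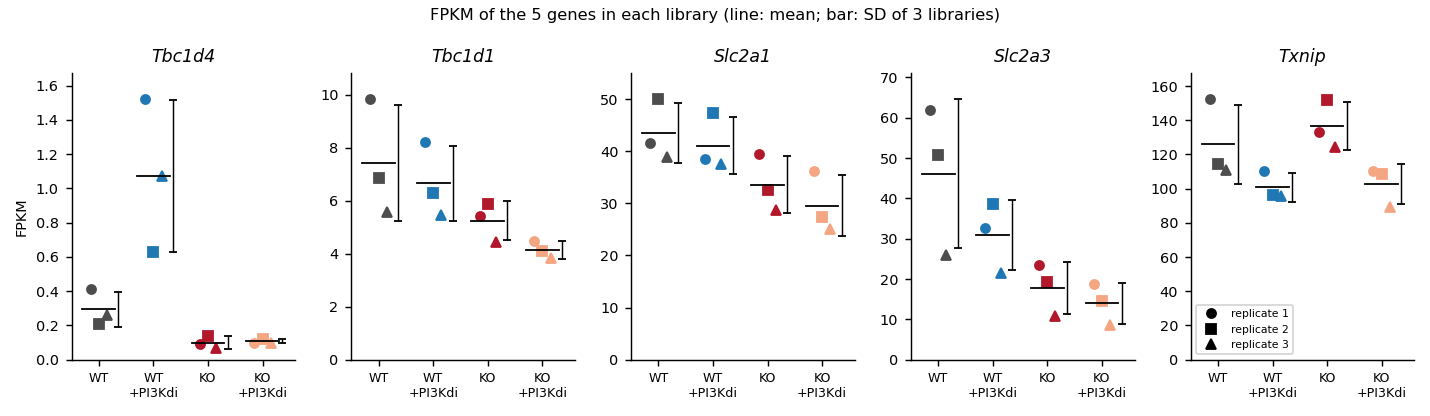
FPKM of Tbc1d4, Tbc1d1, Slc2a1, Slc2a3 and Txnip (vertical axes, each from 0) in each of the 12 libraries, by group on the horizontal axis (KO, FOXO1-GFP KO). Marker shapes give the replicate number, the horizontal line is the mean of a group and the bar beside it its SD over 3 libraries, and Tbc1d4 stood at 0.63 to 1.52 FPKM in WT+PI3Kdi and at 0.07 to 0.41 FPKM in all other libraries.

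Tbc1d1, the closest relative of Tbc1d4 among the RabGAPs, was the more abundant of both mRNA in every library. The gene (ENSMUSG00000029174) lies on chromosome 5 from 64156305 to 64351486 (plus strand). The WT libraries held 9.83, 6.86 and 5.57 FPKM, and after PI3Kdi 8.22, 6.29 and 5.45 FPKM. The FOXO1-GFP KO libraries held 5.43, 5.88 and 4.44 FPKM, and after PI3Kdi 4.49, 4.12 and 3.83 FPKM. Without PI3Kdi the genotypes overlapped, whereas with PI3Kdi all WT libraries lay above all FOXO1-GFP KO libraries.

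The order of the Tbc1d1 means was WT, WT+PI3Kdi, FOXO1-GFP KO and FOXO1-GFP KO+PI3Kdi, at 7.42 ± 2.18, 6.65 ± 1.42, 5.25 ± 0.737 and 4.15 ± 0.331 FPKM (SD, n = 3 each), and each neighbouring pair of groups overlapped. The log2 difference between genotypes was -0.46 without PI3Kdi (95% interval -0.92 to -0.00037, limma adjusted p = 0.767) and -0.65 with PI3Kdi (-1.11 to -0.19, limma adjusted p = 0.225). Neither passed. With PI3Kdi, Tbc1d1 differed by -0.14 in WT (limma adjusted p = 0.9997) and by -0.33 in FOXO1-GFP KO (limma adjusted p = 0.933). With the replicate number as a block within genotype, the value in FOXO1-GFP KO had a limma adjusted p of 0.0476 but stayed under a fold change of 1.5.

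Tbc1d4 thus made up a small and variable share of the RabGAP pair. Of the summed FPKM of Tbc1d4 and Tbc1d1, Tbc1d4 took 4.0, 2.97 and 4.46% in WT and 15.6, 9.10 and 16.4% in WT+PI3Kdi. Its share of the FOXO1-GFP KO libraries was 1.63, 2.33 and 1.55% without PI3Kdi and 2.18, 2.83 and 2.54% with it. The sum itself was 7.71 ± 2.27 FPKM (SD, n = 3) in WT and 7.73 ± 1.76 FPKM (SD, n = 3) in WT+PI3Kdi, and 5.35 ± 0.769 and 4.25 ± 0.330 FPKM (SD, n = 3 each) in FOXO1-GFP KO without and with PI3Kdi. The WT groups did not differ in this sum by more than their spread, and Tbc1d1 supplied most of it throughout.

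The glucose transporter GLUT1 is encoded by Slc2a1 (ENSMUSG00000028645), on chromosome 4 from 119108711 to 119137983 (plus strand). Slc2a1 stood at 41.66, 49.97 and 38.90 FPKM in the WT libraries and at 38.49, 47.28 and 37.52 FPKM once PI3Kdi was given. The FOXO1-GFP KO libraries had 39.43, 32.57 and 28.65 FPKM without and 36.25, 27.30 and 25.13 FPKM with PI3Kdi. In FOXO1-GFP KO replicate 1 was the highest library of its group with and without PI3Kdi, and without PI3Kdi it overlapped WT.

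The Slc2a1 means followed the order WT, WT+PI3Kdi, FOXO1-GFP KO and FOXO1-GFP KO+PI3Kdi, at 43.5 ± 5.76, 41.1 ± 5.38, 33.6 ± 5.46 and 29.6 ± 5.89 FPKM (SD, n = 3 each), and each neighbouring pair overlapped. The log2 difference between genotypes was -0.38 without PI3Kdi (95% interval -0.74 to -0.012, limma adjusted p = 0.734) and -0.48 with PI3Kdi (-0.85 to -0.12, limma adjusted p = 0.271). With PI3Kdi, Slc2a1 differed by -0.08 in WT (-0.45 to 0.28) and by -0.19 in FOXO1-GFP KO (-0.55 to 0.18). None of these passed.

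GLUT3, a transporter of high affinity for glucose, is encoded by Slc2a3 (ENSMUSG00000003153), on chromosome 6 from 122727809 to 122801640 (minus strand). Slc2a3 stood at 61.81, 50.80 and 25.84 FPKM in the WT libraries and at 32.73, 38.68 and 21.47 FPKM once PI3Kdi was given. The FOXO1-GFP KO libraries had 23.45, 19.17 and 10.85 FPKM without and 18.73, 14.43 and 8.70 FPKM with PI3Kdi. The genotypes did not overlap, without or with PI3Kdi, WT being the higher, and replicate 3 was the lowest library of all 4 groups.

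The Slc2a3 means were 46.2 ± 18.4 FPKM in WT, 31.0 ± 8.74 FPKM in WT+PI3Kdi, 17.8 ± 6.41 FPKM in FOXO1-GFP KO and 13.95 ± 5.03 FPKM in FOXO1-GFP KO+PI3Kdi (SD, n = 3 each), in this order, and each neighbouring pair overlapped. The WT mean was 2.59 times that of FOXO1-GFP KO without PI3Kdi and 2.22 times with it. The log2 difference between genotypes was -1.35 without PI3Kdi (95% interval -2.21 to -0.49, limma adjusted p = 0.269) and -1.17 with PI3Kdi (-2.03 to -0.31, limma adjusted p = 0.251). These were the widest differences of the 4 tested genes, and neither passed over all genes, at unadjusted limma p of 0.00536 and 0.0120. With PI3Kdi, Slc2a3 differed by -0.52 in WT (-1.38 to 0.34) and by -0.35 in FOXO1-GFP KO (-1.21 to 0.51). With the replicate block the WT value had a limma adjusted p of 0.0728, and without WT replicate 3 it was -0.71 and passed (limma adjusted p = 0.0479).

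The share of mitochondrial transcripts, a rough sign of RNA or cell quality, ran from 3.11 to 6.80% of the summed FPKM of a library and was highest in replicate 3 of each group, the libraries in which Slc2a3 was lowest. Its part in the Slc2a3 values was not tested. It was 3.11 to 5.05% in WT and 3.54 to 6.12% in FOXO1-GFP KO without PI3Kdi, which overlap.

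FPKM are given per summed exon length (3506 bases for Slc2a1, 7245 for Slc2a3), which need not be that of the expressed transcript. A share of both transporters in a library therefore depends on these lengths. Of the summed FPKM of Slc2a1 and Slc2a3, Slc2a3 took 59.7, 50.4 and 39.9% in WT and 46.0, 45.0 and 36.4% in WT+PI3Kdi. FOXO1-GFP KO libraries gave it 37.3, 37.1 and 27.5% without PI3Kdi and 34.1, 34.6 and 25.7% with it. By FPKM, Slc2a3 thus stood above Slc2a1 in WT replicates 1 and 2 and below it in the other 10 libraries. The genotypes did not overlap in this share without or with PI3Kdi. Of 11 further hexose transporter genes listed, the table held Slc2a8 and Slc2a9, at 1.69 to 3.26 and 1.35 to 2.56 FPKM. The insulin-regulated Slc2a4, whose transporter TBC1D4 retains in muscle and fat, was not among the genes of the table.

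The 4 hexose transporters together summed to 94.3 ± 21.6 FPKM in WT, 77.0 ± 12.97 FPKM in WT+PI3Kdi, 55.1 ± 11.5 FPKM in FOXO1-GFP KO and 48.0 ± 10.7 FPKM in FOXO1-GFP KO+PI3Kdi (SD, n = 3 each). The highest FOXO1-GFP KO library reached 66.4 FPKM and the lowest WT library 69.4 FPKM. With PI3Kdi the corresponding values were 59.3 and 64.5 FPKM.

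**Figure D2:**
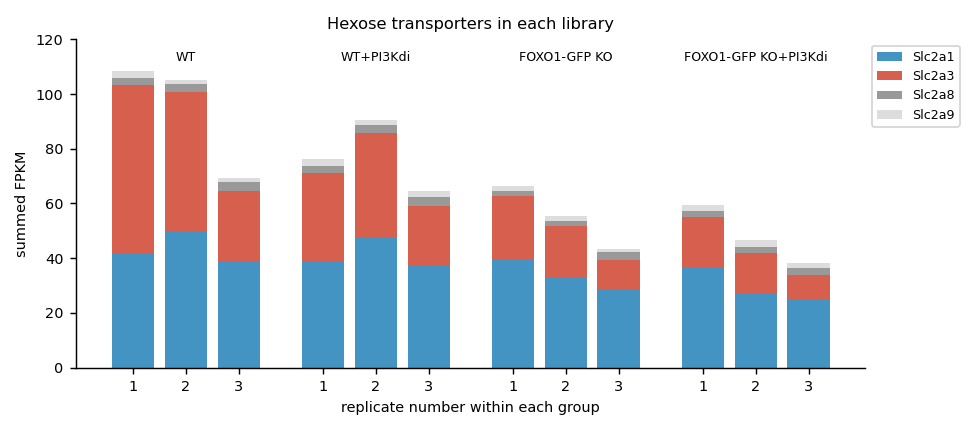
Summed FPKM of the 4 hexose transporter mRNA in the table (vertical axis, from 0), stacked by gene, in each of the 12 libraries (horizontal axis, replicate number within group). The summed FPKM ran from 69.4 to 108 in WT and from 43.4 to 66.4 in FOXO1-GFP KO, with Slc2a1 and Slc2a3 making up most of it.

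Txnip (ENSMUSG00000038393) lies on chromosome 3 from 96557957 to 96561883 (plus strand). The WT libraries read 152.29, 114.53 and 110.94 FPKM and, once PI3Kdi was given, 110.20, 96.36 and 95.54 FPKM. The FOXO1-GFP KO libraries read 133.37, 152.13 and 124.41 FPKM without and 110.48, 108.52 and 89.19 FPKM with PI3Kdi. All PI3Kdi libraries lay under all vehicle libraries of their genotype, while the genotypes overlapped without and with PI3Kdi. Between 95.7 and 97.9% of genes in a library had a lower FPKM than Txnip.

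With PI3Kdi the mean of Txnip went from 126 ± 22.9 to 100.7 ± 8.24 FPKM in WT and from 137 ± 14.1 to 103 ± 11.8 FPKM in FOXO1-GFP KO (SD, n = 3 each). In descending order the means were those of FOXO1-GFP KO, WT, FOXO1-GFP KO+PI3Kdi and WT+PI3Kdi, and FOXO1-GFP KO overlapped WT as FOXO1-GFP KO+PI3Kdi overlapped WT+PI3Kdi. The lowest WT library (110.94 FPKM) lay just above the highest FOXO1-GFP KO+PI3Kdi library (110.48 FPKM). The log2 difference with PI3Kdi was -0.31 in WT (95% interval -0.62 to 0.0015, limma adjusted p = 0.960) and -0.41 in FOXO1-GFP KO (-0.72 to -0.10, limma adjusted p = 0.722). With the replicate block within genotype the limma adjusted p became 0.0203 for WT and 0.00517 for FOXO1-GFP KO, and the fold change stayed under 1.5 in both. Leaving out 1 library at a time from the blocked fit gave adjusted p of 0.0152 to 0.131 in WT and of 0.00334 to 0.0432 in FOXO1-GFP KO. Between genotypes, Txnip differed by 0.13 without PI3Kdi (-0.18 to 0.44) and by 0.03 with it (-0.29 to 0.34).

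The antisense gene Gm15441 overlaps Txnip and was in the table at 0.25 to 1.11 FPKM. The kit keeps the strand, but the strand setting of the counting is not given in the sources used here. The genes that overlap the other 4 members were not among the genes of the table.

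**Figure D3:**
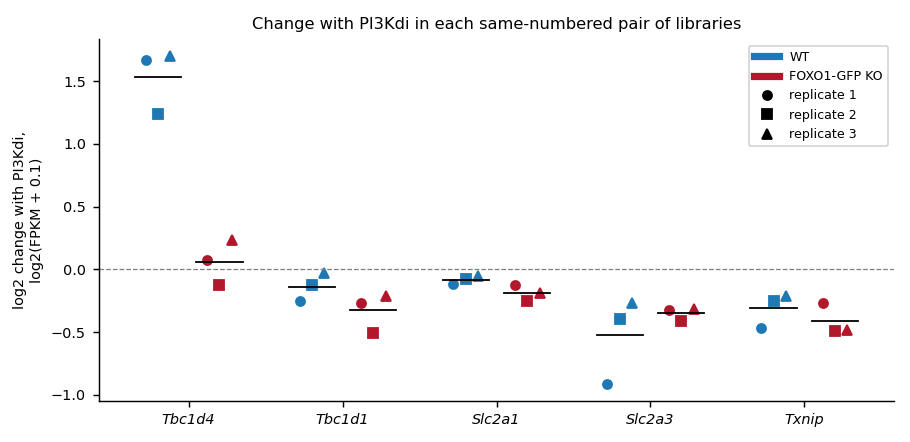
Change of log2(FPKM + 0.1) with PI3Kdi (vertical axis) of each of the 5 genes in each same-numbered pair of vehicle and PI3Kdi libraries, in WT (blue) and FOXO1-GFP KO (red). Marker shapes give the replicate number and the line is the mean of 3 pairs, and the 3 WT pairs of Tbc1d4 lay at 1.24 to 1.70 while all 24 values of the other 4 genes were under 0.

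Read across the comparisons, 0 of the 4 tested genes were called, a call needing a fold change over 1.5 and an adjusted p under 0.05, in any of the 5 contrasts of the limma fit without a block. The share of all genes called was 0.0979% for PI3Kdi in WT, 0.0452% for PI3Kdi in FOXO1-GFP KO, 0.331% between genotypes without PI3Kdi, 1.45% between genotypes with PI3Kdi and 0% for the difference of the PI3Kdi responses. An unadjusted p under 0.05 was reached by 0 of the 4 for PI3Kdi in WT, by 1 for PI3Kdi in FOXO1-GFP KO, by 3 in each genotype comparison and by 0 in the difference of responses, against 5.14, 5.17, 6.51, 10.2 and 1.51% of all genes in the order of the contrasts above. Voom on estimated reads also called 0 of the 4 in each contrast. With the replicate block within genotype, 0 of the 4 were called as well, where the shares of all genes were 2.57%, 2.79%, 0.233%, 1.18% and 0.0226% in the same order. An unadjusted p under 0.05 was then reached by 2, 3, 3, 3 and 0 of the 4 genes and by 23.7, 29.5, 5.09, 9.0 and 10.8% of all genes.

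Directions were shared more than sizes. In WT the 4 tested genes were lower with PI3Kdi in 3 of 3 pairs, as were 29.5% of all genes. In FOXO1-GFP KO the 4 were lower in 3 of 3 pairs too, as were 26.4% of all genes. The share of all genes lower in both genotypes was not computed. Among the 4 tested genes, vehicle and PI3Kdi groups did not overlap for Txnip in WT, where 10.2% of all genes did not, and for Txnip in FOXO1-GFP KO, where 10.1% did not. Between genotypes, Slc2a3 did not overlap without PI3Kdi (10.3% of all genes), and Tbc1d1, Slc2a1 and Slc2a3 did not overlap with PI3Kdi (14.8% of all genes). Tbc1d4 is left out of this comparison with all genes, since it was picked for such a pattern. The comparisons share groups, so these counts are not independent of each other. The FOXO1-GFP KO response minus the WT response was -0.19 for Tbc1d1 (95% interval -0.84 to 0.46), -0.11 for Slc2a1 (-0.62 to 0.41), 0.18 for Slc2a3 (-1.04 to 1.39) and -0.10 for Txnip (-0.54 to 0.34), and none passed.

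**Figure D4:**
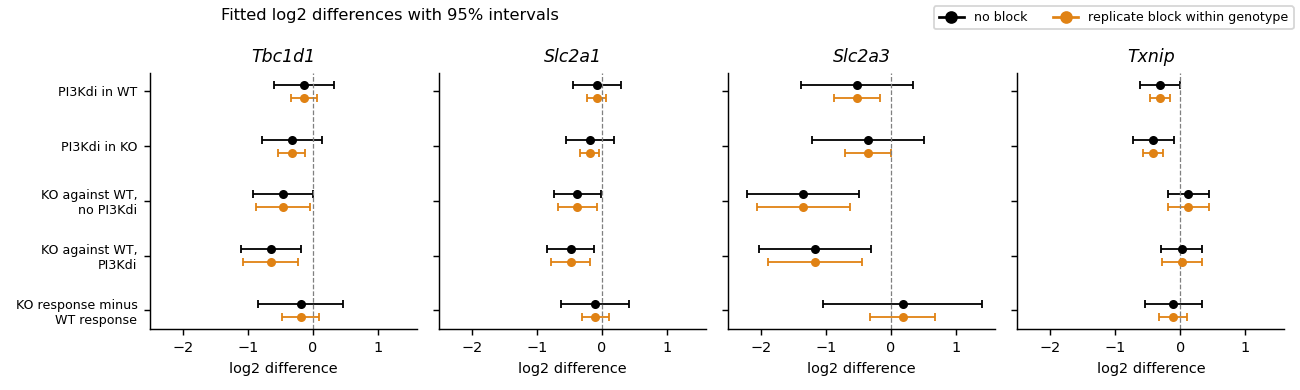
Log2 differences of the 4 tested genes (horizontal axes, log2(FPKM + 0.1) scale) with 95% intervals, for the 5 contrasts on the vertical axis, from the limma fit without a block (black) and with the replicate block within genotype (orange). The values for Slc2a3 between genotypes, -1.35 and -1.17, lay furthest from 0, and the block narrowed the intervals with PI3Kdi.

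The rest of the glucose uptake machinery was followed with 8 lists of 110 genes, of which 92 were in the table. These lists too were chosen with earlier results of these data known. They cover the Rab GTPases that RabGAPs act on, other hexose transporters, relatives and regulators of TXNIP, hexokinases, 14-3-3 proteins, AKT and AMPK kinases, parts of transporter vesicle traffic and the TBC domain family. Without the block, 0 of the 92 genes were called in each of the 5 contrasts by limma or by voom on estimated reads. An unadjusted limma p under 0.05 was reached by 4 genes with PI3Kdi in WT, 4 with PI3Kdi in FOXO1-GFP KO, 5 between genotypes without PI3Kdi, 4 with PI3Kdi and 0 in the difference of responses. As shares of the 92 genes these were 4.35, 4.35, 5.43, 4.35 and 0%, each under the share of all genes given above. The median log2 difference of the 92 genes was -0.07, -0.02, -0.06, -0.02 and 0.03 in these contrasts, against -0.04, -0.02, -0.01, 0.01 and 0.02 over all genes.

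The most abundant gene of each list was read at the following levels over the 12 libraries. Slc2a8, a hexose transporter of intracellular membranes, was at 1.69 to 3.26 FPKM. Rab2a, a Rab GTPase on which TBC1D4 and TBC1D1 can act, was at 40.8 to 57.9 FPKM. Hk1, which phosphorylates glucose after entry, was at 23.7 to 41.4 FPKM, and Txn1, the thioredoxin bound by TXNIP, at 356 to 691 FPKM. The 14-3-3 gene Ywhae was at 198 to 251 FPKM, the kinase gene Akt1 at 72.4 to 94.8 FPKM, Rhoq, a small GTPase of transporter traffic, at 26.4 to 39.3 FPKM, and Tbc1d10c, which encodes the lymphocyte protein carabin, at 13.15 to 29.99 FPKM. None of these was called in any contrast, without or with the block. Among the AKT and AMPK kinases 0 of 11, among the 14-3-3 proteins 0 of 7, among the hexokinases 0 of 4 and among the vesicle traffic genes 0 of 17 were called in either fit. At most 1.45% of all genes were called in a contrast without and 2.79% with the block, so 0 calls in lists this short says little.

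With the replicate block within genotype, 2 of the 92 genes were called, both with PI3Kdi in WT CTL, 1 of 10 relatives and regulators of TXNIP and 1 of 35 TBC domain genes. That is 2.17% of the list genes, beside 2.57% of all genes, so the lists held no more calls than the table as a whole. In the other 4 contrasts 0 of the 92 were called, and over all 5 contrasts an unadjusted p under 0.05 was reached by 16 with PI3Kdi in WT, 25 with PI3Kdi in FOXO1-GFP KO, 3 in each genotype comparison and 7 in the difference of responses. These are 17.4, 27.2, 3.26, 3.26 and 7.61% of the list genes, each under the share of all genes in the blocked fit. The 2 called genes are described for their values.

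Arrdc4 encodes an alpha-arrestin related to TXNIP that is also a target of MondoA, and its promoter window is shown beside that of Txnip. The WT libraries held Arrdc4 at 1.89, 1.59 and 1.13 FPKM, and after PI3Kdi at 0.99, 1.06 and 0.63 FPKM. Those of FOXO1-GFP KO held it at 0.86, 1.19 and 1.48 FPKM, and after PI3Kdi at 0.87, 0.76 and 1.0 FPKM. All WT+PI3Kdi libraries lay under all WT libraries, and the FOXO1-GFP KO groups overlapped. With the block Arrdc4 fell by 0.72 on the log2 scale in WT (limma adjusted p = 0.00783), against an adjusted p of 0.646 without it. In FOXO1-GFP KO the difference was -0.36 (limma adjusted p = 0.103 with the block), and the difference of the responses did not pass (0.36, limma adjusted p = 0.546 with the block). Fits without 1 FOXO1-GFP KO library kept the blocked call in WT, but they leave the WT difference at -0.72 by construction. Among fits without 1 WT or WT+PI3Kdi library, the call held without WT replicate 2, WT replicate 3 or WT+PI3Kdi replicate 2. It was lost without WT replicate 1, WT+PI3Kdi replicate 1 or WT+PI3Kdi replicate 3, with adjusted p up to 0.0610. With the block as fixed terms the adjusted p was 0.0261.

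Tbc1d30, another TBC domain RabGAP, was also a scarce mRNA. The WT libraries held it at 0.55, 0.42 and 0.40 FPKM, and after PI3Kdi at 0.83, 0.67 and 0.75 FPKM, without overlap. Those of FOXO1-GFP KO held it at 0.50, 0.67 and 0.70 FPKM, and after PI3Kdi at 0.61, 0.83 and 0.53 FPKM, which overlapped. With the block Tbc1d30 rose by 0.62 on the log2 scale in WT (limma adjusted p = 0.0133), against an adjusted p of 0.516 without it. In FOXO1-GFP KO the difference was 0.06, and the difference of the responses was -0.56 (limma adjusted p = 0.266 with the block), so a difference between genotypes was not shown. Fits without 1 FOXO1-GFP KO library kept the blocked call, but they leave the WT difference at 0.62 by construction. Among fits without 1 WT or WT+PI3Kdi library, the call held without WT replicate 1 or WT+PI3Kdi replicate 2. It was lost without WT replicate 2, WT replicate 3, WT+PI3Kdi replicate 1 or WT+PI3Kdi replicate 3, with adjusted p up to 0.0782. With the block as fixed terms it was lost as well (adjusted p = 0.0568). Between 61 and 148 estimated reads lay behind each value.

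**Figure D5:**
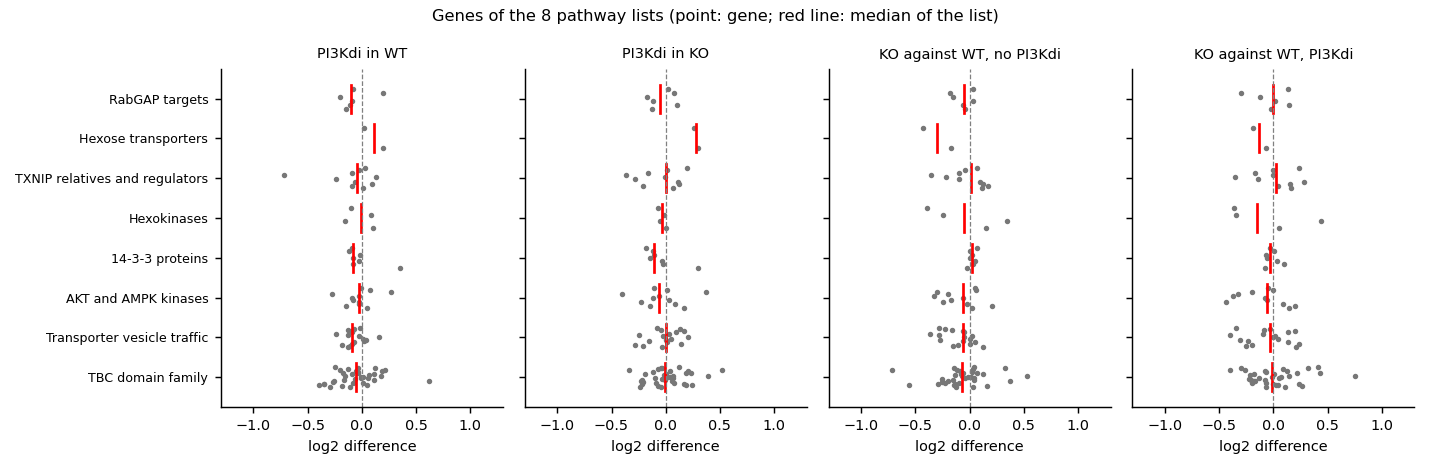
Log2 differences (horizontal axes, limma fit without a block) of the 92 genes of the 8 pathway lists (vertical axis), for PI3Kdi in WT and FOXO1-GFP KO and for FOXO1-GFP KO against WT without and with PI3Kdi. Each point is a gene and each red line the median of its list, and the points furthest from 0 with PI3Kdi in WT are Arrdc4 at -0.72 and Tbc1d30 at 0.62.

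Genes whose level followed each member most closely over the 12 libraries were ranked by Pearson correlation of log2(FPKM + 0.1), as a description, since all genes share the libraries, their depth and the replicate pairs. The 5 closest to Tbc1d4 were Ttyh3 (r = 0.970), Tpcn1 (r = 0.966), Ssbp2 (r = 0.964), Selenop (r = 0.962) and Lyst (r = 0.958). Ttyh3 was at 4.64 to 7.12 FPKM in WT and 8.29 to 12.64 FPKM in WT+PI3Kdi, and at 2.53 to 3.99 and 3.67 to 4.29 FPKM in FOXO1-GFP KO. Selenop, which encodes the plasma selenium carrier, was at 7.20 to 10.67 and 12.87 to 17.48 FPKM in WT and at 4.73 to 5.85 and 5.40 to 7.62 FPKM in FOXO1-GFP KO. As for Tbc1d4, every WT+PI3Kdi library of both lay above all other libraries, which the choice by correlation with Tbc1d4 favours.

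The closest to Tbc1d1 were Sla (r = 0.979), Clcn3 (r = 0.976) and Ankrd50 (r = 0.971), and to Slc2a1 Serpinb6b (r = 0.961), Ubl3 (r = 0.958) and Fhl2 (r = 0.934). Slc2a3 was followed most closely by Trib1 (r = 0.982), Pgm1 (r = 0.975), a phosphoglucomutase, and Pik3ap1 (r = 0.967), an adaptor of PI3K. Pgm1 was at 28.72 to 42.04 FPKM in WT and 15.28 to 25.15 FPKM in FOXO1-GFP KO. Txnip was followed by Rabep1 (r = 0.948), Ints4 (r = 0.939) and Riok3 (r = 0.936).

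The nearest genes of the table on each side of a member were read as well. Commd6, 23.8 kb from Tbc1d4, was at 4.53 to 5.85 FPKM in WT and 3.97 to 5.28 FPKM in WT+PI3Kdi, which overlap, and Pibf1, 2188 kb away on the other side, was at 0.90 to 1.17 FPKM in all libraries. Next to Tbc1d1 lay Pgm2 at 7.79 to 12.51 FPKM and Klf3 at 0.08 to 0.38 FPKM. Next to Slc2a1 lay Gm12856 and Zfp691, next to Slc2a3 Gm10420 and Gm5112, and next to Txnip Gm9207 and Polr3gl. None of these 10 neighbours was called in any contrast without the block, where at most 1.45% of all genes were. With the block Klf3 alone was called, at 0.83 with PI3Kdi in WT (limma adjusted p = 0.00312), where 2.57% of all genes were. Klf3 was at 0.10 to 0.17 FPKM in WT and 0.25 to 0.38 FPKM in WT+PI3Kdi, near the pseudocount of 0.1.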

How the data were processed

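RNA was sequenced from 12 libraries of CTL (TruSeq Stranded mRNA kit, 300 ng of RNA as input). Per the labels and the study's methods, the authors aligned paired reads with STAR 2.7.1a to GRCm38.p6, counted reads per gene on the Ensembl 98 annotation, removed low genes with edgeR filterByExpr and scaled libraries by TMM. The deposited FPKM values were then obtained by the authors by dividing by the summed exon length of each gene, and they are rounded to 0.01 for 13283 genes. STAR 2.7.1a, edgeR and GRCm38.p6 are named in the submitters' processing notes. No per-sample column of the table was left without a sample.

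The 5 members and the pathway lists were chosen with earlier results of these data known. FPKM were transformed to log2(FPKM + 0.1) and fitted for all genes and all 12 libraries with limma 3.58.1 in R 4.3.3 (4 group means, empirical Bayes with a mean-variance trend, Benjamini-Hochberg adjustment over 13283 genes), and a gene was called at an adjusted p under 0.05 and a fold change over 1.5. The study's own fit was voom on read counts, while FPKM are the values used here. The fit was tested on simulated data. Tbc1d4 was not tested. Gene lengths and positions were from GENCODE M21 (13276 genes matched). The spacing of low FPKM gave the depth (12.9 to 48.0 M reads), and 94.8 to 98.4% of held-out values came out as whole reads within the rounding of the file, against 7.5 to 28.2% by chance. Estimated reads were used for voom as an alternative. Counting errors cover counting only. Same-numbered vehicle and PI3Kdi libraries deviated together from their group means in both genotypes (correlation 0.596 to 0.838 in WT and 0.594 to 0.780 in FOXO1-GFP KO), so the numbers were taken as pairs within genotype, whereas across genotypes the same correlation ran from -0.499 to 0.730. Replicates of a group differed by more than sampling noise. The genes named are the 5 members, genes of the lists called in a contrast, the most abundant gene of each list, the closest genes by correlation among those with a mean of at least 1 FPKM, and chromosomal neighbours. Other pseudocounts (0.01 and 1), a filter at a mean of 1 FPKM, other blocks, fits of the groups of a contrast alone and leaving out each library were the alternatives, and voom with the replicate block and each library left out with the replicate block were chosen after seeing the data.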

Additional observations from a re-analysis of the deposited data

Results flagged for a closer look

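In 3 of the 92 list genes every WT pair was lower and every FOXO1-GFP KO pair higher with PI3Kdi. Over all genes 3.03% had all pairs of the genotypes in opposite directions, so the list genes did so about as often as all genes. The 3 are given for their values only. Rhoq, which encodes the small GTPase TC10 of transporter vesicle traffic, differed on the log2 scale by -0.0907 for WT and 0.141 for FOXO1-GFP KO. Vamp8, which encodes a SNARE of vesicle fusion, had -0.0893 and 0.1705, and Evi5, a TBC domain gene, had -0.3542 and 0.1728. Evi5 was at 0.04 to 0.19 FPKM over the 12 libraries, near the pseudocount of 0.1 and the rounding step of 0.01. The difference of the responses was 0.23 for Rhoq, 0.26 for Vamp8 and 0.53 for Evi5, and none passed the limma fit over all genes (adjusted p = 0.343, 0.327 and 0.329 with the replicate block). Single libraries far from their group were not looked for, since the criterion used needs at least 4 libraries in a group.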

How the results depend on the processing

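Of 138 values of Tbc1d4 under other settings, 126 moved by less than the spread between replicates, but many of these could not move. In this balanced design, and outside voom, a replicate block, the filter and a fit of a contrast's groups alone leave a difference unchanged. So does leaving out a library of a group outside the contrast. The 12 that moved further keep the direction. With a pseudocount of 1 the difference was 0.66 with PI3Kdi in WT, -0.23 and -0.88 between genotypes without and with PI3Kdi, and -0.65 for the difference of responses. With a pseudocount of 0.01 the genotype values were -1.46 and -3.13. Voom on estimated reads gave 1.92 with PI3Kdi in WT, -1.36 and -3.23 between genotypes and -1.87 for the difference of responses, and voom with the replicate block gave -1.39 and -3.19 between genotypes. Leaving out 1 library gave 1.26 to 1.84 with PI3Kdi in WT. With PI3Kdi in FOXO1-GFP KO it gave -0.0487 to 0.2001, so that the sign of this small difference turned.

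Among the other 4 members, 535 of 552 values kept direction and call. Many of these could not change direction, since the settings named above for Tbc1d4 leave their differences unchanged as well. With a replicate block shared by all groups, whose numbers do not pair the genotypes, Tbc1d1 with PI3Kdi (-0.65, limma adjusted p = 0.0212) and Slc2a3 without (-1.35, adjusted p = 0.00136) and with PI3Kdi (-1.17, adjusted p = 0.000877) were called between genotypes. Slc2a3 with PI3Kdi in WT was called without WT replicate 3 under the replicate block within genotype (-0.71). Its values without 1 library ran from -0.90 to -0.27. Values turned sign only when a library was left out: Tbc1d1 in WT ran from -0.32 to 0.0837, Slc2a1 in WT from -0.19 to 0.0219, the difference of responses from -0.26 to 0.0165 for Slc2a1 and from -0.14 to 0.55 for Slc2a3 (-0.0348 without WT replicate 1 under the replicate block), and Txnip between genotypes with PI3Kdi from -0.0304 to 0.12.

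Of the 92 list genes, 0 were called with PI3Kdi in WT without a block. The replicate block within genotype gave 2, its form as fixed terms 1 (Arrdc4) and voom with the block 2, and leaving out 1 library from the blocked fit gave 0 to 2. In FOXO1-GFP KO the count was 0, voom with the block gave 1 (Tbc1d8) and leaving out 1 library from the blocked fit gave 0 to 1. The replicate block changed no other call of a member or list gene within genotype, and the cause of these changes was not tested. Depth limits the precision of Tbc1d4, with 7 to 35 estimated reads in the FOXO1-GFP KO libraries.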
